A study of Mus musculus with 6 samples.

Results

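The genes described here encode the nuclear-encoded subunits of the oxidative phosphorylation machinery, and they were chosen by a rule on symbols, set with earlier results of these data known. All genes of the deposited count table whose symbol starts with Nduf followed by a, b, c, s or v and a number, with Uqcr, with Atp5, or with Cox and a digit from 4 to 8, together with Sdha, Sdhb, Sdhc and Sdhd, were taken, which gave 78 of the 10520 genes in the table. Of these, 34 belong to complex I, 4 to complex II, 8 to complex III, 15 to complex IV and 15 to complex V. Atp5s (coupling factor B) and Atp5sl match by symbol and are not subunits, and Ndufa4, which was named for complex I, is counted with complex IV.

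Complexes I to IV form the respiratory chain of the inner mitochondrial membrane. Complex I takes electrons from NADH and complex II from succinate, both pass them through ubiquinone to complex III, and complex IV, cytochrome c oxidase, hands them to oxygen. The proton gradient that complexes I, III and IV build drives complex V, the ATP synthase. The complexes other than complex II also contain subunits encoded by mitochondrial DNA, of which the count table holds 0 under the symbols searched, so the nuclear-encoded partners alone were examined.

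The cells were E0771 cells, a C57BL/6 mouse breast adenocarcinoma line, stably transduced with lentivirus that carried either the empty pLKO.5-puro vector (shControl) or a construct targeting lamin A/C (shLmna), with 3 libraries in each group. Both groups underwent selection with puromycin at 3 µg/ml, and the shControl vector held no shRNA, so the expression of a hairpin as such is not matched between groups. On the plate, positions 13 to 15 held the shControl samples and positions 16 to 18 the shLmna samples, and the effects of position and group cannot be told apart. The titles of the shLmna libraries read shRNA4, and the labels do not say whether the libraries came from separate cultures, so that p-values measure only the spread between these libraries. RNA was read by bulk MARS-seq, in which the 3' end of each polyadenylated RNA is captured and carries a unique molecular identifier (UMI), so that amplified copies of a molecule count as 1. The comparison asked how the reduced lamin A/C level, which makes nuclei more deformable, changes transcription in these cells.

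The libraries held 1896612 to 3242051 UMIs in shControl and 1846208 to 2706709 in shLmna. Lmna, the targeted gene, fell from 810, 874 and 936 to 388, 376 and 379 UMIs per 1000000 (CPM, scaled by edgeR's TMM factors) in replicates 1, 2 and 3 (log2 fold change -1.20, standard error (SE) 0.13). Of 8 epithelial markers searched, 4 were in the table: Krt8 stood at 246 to 305 CPM, and Epcam at 13.3 to 14.4 CPM in shControl and 4.25 to 11.7 CPM in shLmna. The other 2 were low over the 6 libraries, Krt18 at 2.62 to 9.02 CPM and Krt7 at 1.25 to 5.32 CPM. Krt19, Cdh1, Cldn3 and Cldn7 were not in the table. Leukocyte markers, 2 of 5 in the table, summed to 15.3 to 17.3 CPM in shControl and 18.4 to 24.4 CPM in shLmna. These 2 went opposite ways: Lyz2 was called higher (log2 fold change 1.28, SE 0.30), and Cd68, not called, was lower (-0.62, SE 0.33). Fibroblast markers, 4 of 5 in the table, summed to at most 18.8 CPM in shControl and 27.2 to 30.8 CPM in shLmna, with Pdgfrb called higher. Endothelial markers summed to at most 3.18 CPM. In 1 library of each group, shControl replicate 3 and shLmna replicate 2, transcripts of the melanocyte lineage were present: the 5 markers Mlana, Pmel, Tyrp1, Dct and Mitf summed to 735 and 590.0 CPM there, against 0.75 to 5.88 CPM in the other 4 libraries. The study also sequenced the melanoma line B16F10. How RNA of another cell type came into these libraries was not tested, and in bulk RNA fewer cells of a type and less RNA per cell cannot be told apart. The called subunit genes and related genes are therefore given with and without both.

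**Figure D1:**
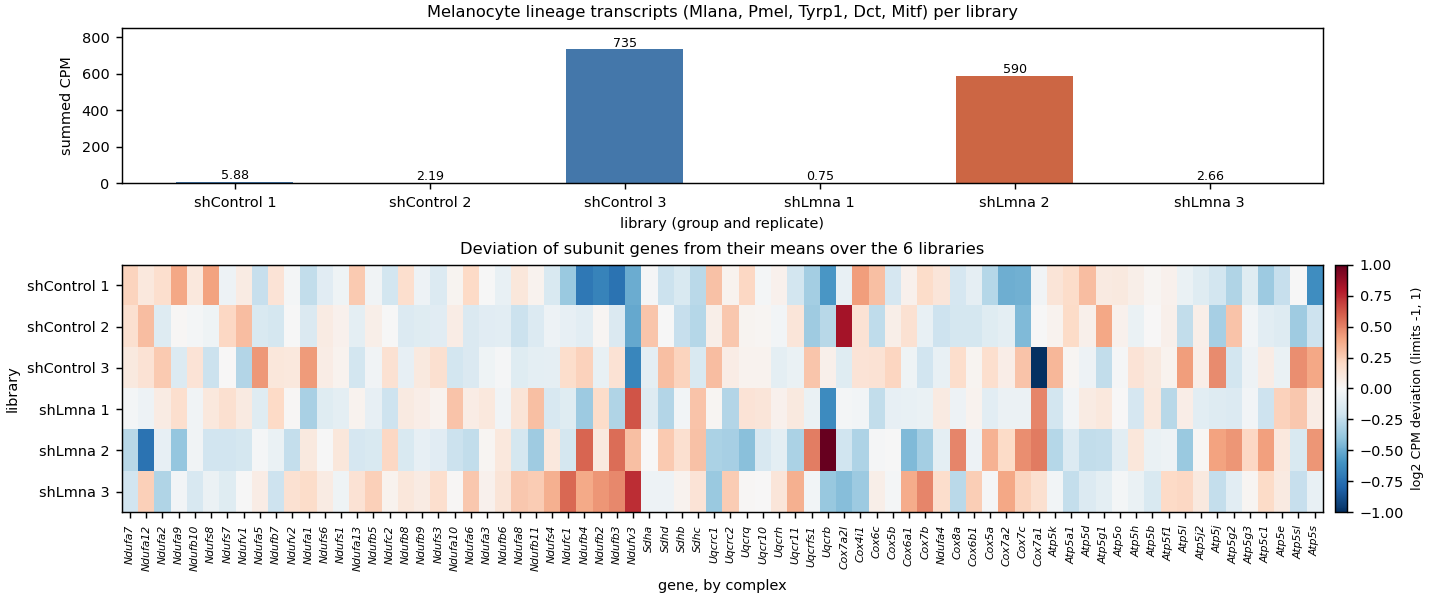
Top, summed level of 5 melanocyte lineage markers in each library (CPM, linear axis). Bottom, deviation of 74 of the 75 tested subunit genes from their own mean over the 6 libraries (log2 CPM, colours end at -1 and 1, so larger deviations such as that of Uqcrb in shLmna replicate 2 take the end colour), ordered by complex. Melanocyte markers reached 735 CPM in shControl replicate 3 and 590.0 CPM in shLmna replicate 2, and shLmna replicate 2 was the lowest library for 21 of all 75 tested subunit genes and the highest for 15.

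As a group, the subunit genes differed little between shControl and shLmna. They took 3.04, 3.09 and 3.16% of all UMIs in the shControl libraries and 3.09, 3.02 and 3.23% in the shLmna libraries, or 3.10 ± 0.0558% against 3.11 ± 0.106% (SD, n = 3), and both groups overlapped. By complex, the shares were 0.951 ± 0.0135% against 0.981 ± 0.0526% for complex I, 0.0998 ± 0.0108% against 0.111 ± 0.0102% for complex II, 0.412 ± 0.00807% against 0.410 ± 0.0369% for complex III, 0.511 ± 0.00925% against 0.513 ± 0.0499% for complex IV and 1.12 ± 0.0155% against 1.10 ± 0.0165% for complex V (SD, n = 3). None of these 5 differences was larger than the sum of both SDs, and for complexes I, III and IV the shLmna libraries spread more than the shControl libraries did.

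**Figure D2:**
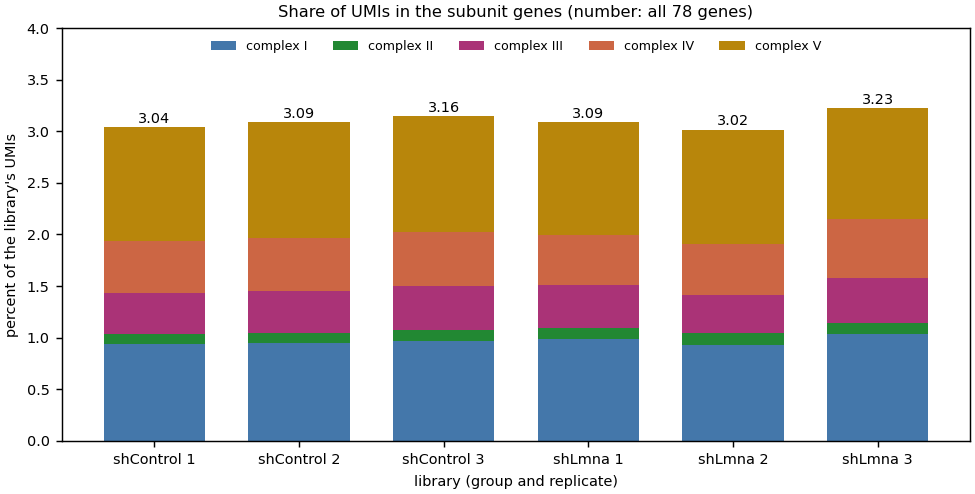
Percent of each library's UMIs that fell on the subunit genes, stacked by complex, for the 3 shControl and 3 shLmna libraries. The number over each bar is the share of all 78 genes and lies between 3.02 and 3.23%, with both groups overlapping.

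Gene by gene, 75 of the 78 genes passed a filter on low counts (edgeR's filterByExpr with a minimum count of 10), as did 8969 of the 10520 genes, and entered edgeR's quasi-likelihood test, whose p-values were adjusted over all 8969 by the procedure of Benjamini and Hochberg. Of the 75, 3 passed an adjusted p of 0.05, Ndufv3 and Sdhc higher and Cox4i1 lower in shLmna. That is 4.0% of the subunit genes, against 13.7% of all genes tested. For the higher genes the share was 2.67% against 7.96%, and for the lower genes 1.33% against 5.78%. Under the criteria the study used, which add an absolute log2 fold change above 1 and a mean normalized count above 5, the only called subunit gene was Ndufv3, or 1.33% against 5.71%, and none was called lower, against 1.74% of all genes. At an unadjusted p below 0.05 there were 9 subunit genes (12.0%), against 28.4% of all genes. In 13 of the 75 (17.3%) the 3 shLmna libraries did not overlap the 3 shControl libraries, 7 higher and 6 lower, against 32.5% of all genes tested. Without both libraries with melanocyte transcripts, 3 of 76 subunit genes were called (Ndufv3, Ndufb2 and Cox7c), against 13.2% of all genes. With the presence of these transcripts as a term in the fit, Ndufv3, Sdhc, Cox4i1, Ndufb2, Cox7c and Uqcrc1 were called, 6 of 75, against 20.8% of all genes.

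The fold changes of the subunit genes were narrow. Their median log2 fold change was 0.0018, beside 0.0033 over all genes tested, with 39 above and 36 below 0, and the middle of the distribution, from the lower to the upper quartile, ran from -0.09 to 0.15, beside -0.26 to 0.30. The medians were 0.0731 and 0.0016 without both libraries with melanocyte transcripts. The median absolute log2 fold change was 0.13, beside 0.27. The 95% interval lay within a log2 fold change of -1 to 1 for 71 of the 75 genes (94.7%, against 71.6% of all genes), and within -0.5 to 0.5 for 40 of them (53.3%, against 17.9%). The exceptions to the wider limits were Ndufv3, Uqcrb, Cox7a1 and Ndufb3, whose upper bounds were 1.44, 2.47, 1.54 and 1.06. The subunit genes were also more abundant than most genes, with a median of 8.29 log2 CPM beside 5.20, and their median SE was 0.15 beside 0.21. Their part in the narrow range was not tested.

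**Figure D3:**
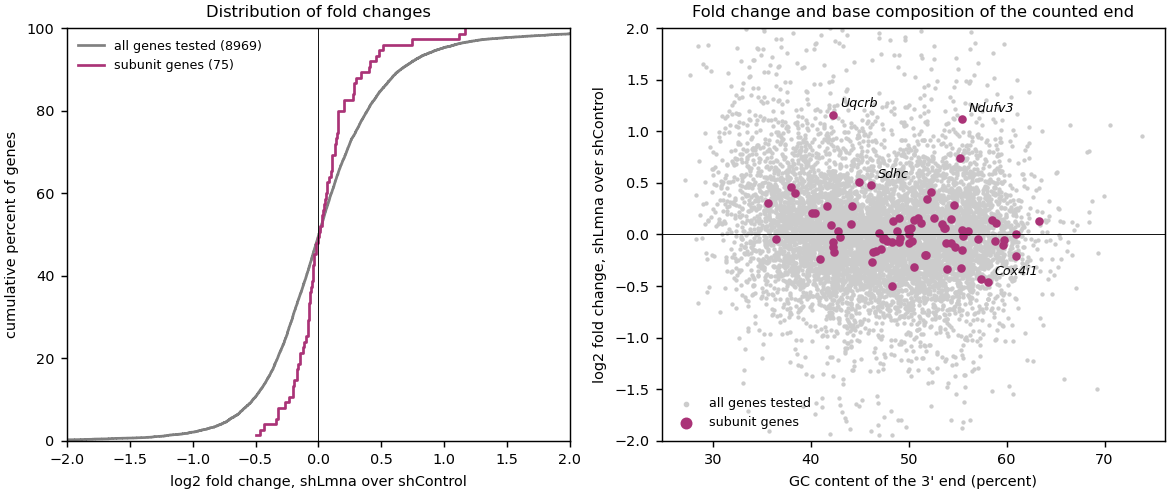
Left, cumulative percent of genes against log2 fold change (shLmna over shControl) for the 75 subunit genes and all 8969 genes tested. Right, log2 fold change against the GC content of the last 1000 bases of the transcript for the same genes, without genes beyond the axis limits. The curve of the subunit genes is the steeper, with quartiles at -0.09 and 0.15, and Ndufv3, at a GC content of 55.4%, lies above the other subunit genes of similar GC content.

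Ndufv3 showed the clearest change. It encodes an accessory subunit of the part of complex I that oxidizes NADH, where it sits with the catalytic subunits Ndufv1, which binds NADH and flavin mononucleotide, and Ndufv2, which carries an iron-sulfur cluster. In GRCm38 (mm10) the gene spans positions 31520115 to 31531331 of chromosome 17, on the forward strand. The 3' end of its annotated transcript overlaps no other gene, and no annotated transcript of another gene matched it over at least 100 bases at 95% identity. Its level was 142, 140 and 127 CPM in the shControl libraries (363, 449 and 240 UMIs) and 311, 248 and 335 CPM in the shLmna libraries (831, 676 and 630 UMIs). All 3 shLmna libraries stood well above all shControl libraries, and the lowest of them was shLmna replicate 2, which held the melanocyte transcripts. The means were 137 ± 8.17 and 298 ± 44.9 CPM (SD, n = 3), a 2.18-fold rise (log2 fold change 1.12, SE 0.15, edgeR, adjusted p = 0.000203). Counts at the 3' end do not tell apart transcript isoforms that share this end. By p it ranked 91 of the 8969 genes tested, and 335 genes had a higher log2 fold change. The call held in every one of the 21 fits run, with log2 fold changes from 1.03 to 1.24. Without both libraries that held melanocyte transcripts the log2 fold change was 1.19 (adjusted p = 3.28e-05 from the same test).

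Its partners in the same part of the complex did not pass the test. Ndufv1 stood at 334, 391 and 257 CPM in shControl and 335, 279 and 315 CPM in shLmna (log2 fold change -0.08, 95% interval -0.43 to 0.26). Ndufv2 stood at 389, 394 and 424 CPM against 398, 334 and 439 CPM (log2 fold change -0.04, 95% interval -0.34 to 0.26). Ndufv2 depended on the fit: with the GC content of the 3' end corrected for, its log2 fold change was -0.38 (adjusted p = 0.0984), and with the presence of melanocyte transcripts as a further term it was -0.39 and called lower (edgeR's quasi-likelihood test, adjusted p = 0.0177). Both genes overlapped between groups, and both were chosen for description after their values were seen. Ndufv3 therefore took 16.5, 15.2 and 15.7% of the UMIs of the Ndufv genes in shControl and 29.8, 28.8 and 30.8% in shLmna. The 95% Wilson intervals of these shares, which cover counting error only, reached at most 18.1% in shControl and began at 27.0% or above in shLmna.

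**Figure D4:**
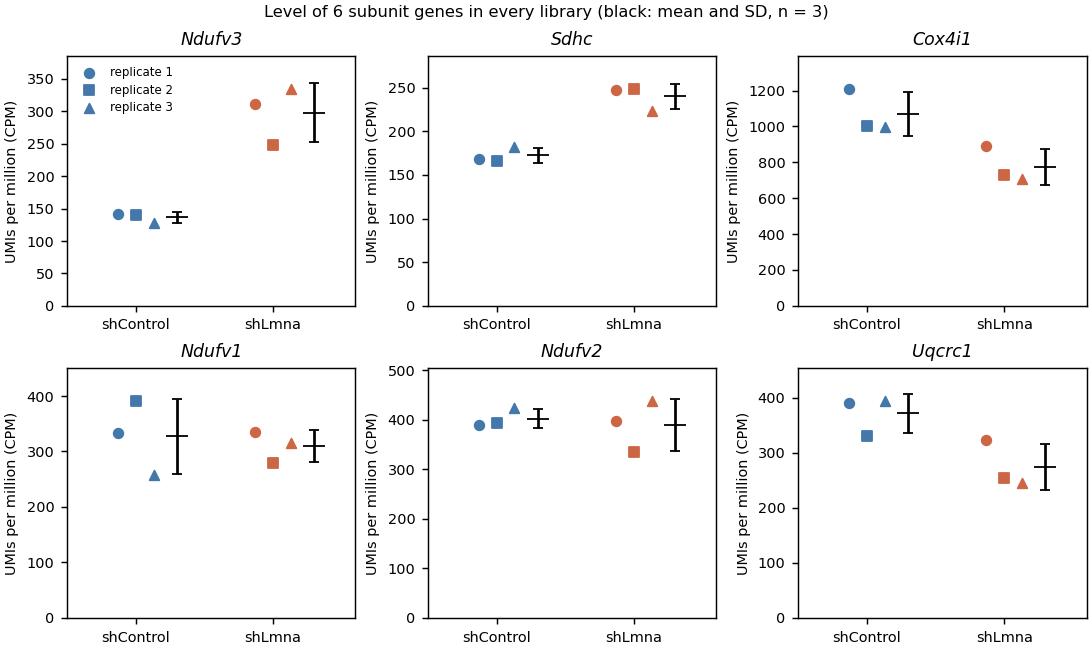
Level of 6 subunit genes in each library (CPM, linear axes from 0, marker shape gives the replicate), with the mean and SD of each group in black (n = 3). Ndufv3 rose from 127 to 142 CPM in shControl to 248 to 335 CPM in shLmna, Sdhc rose and Cox4i1 fell with no overlap between groups, and Ndufv1 and Ndufv2 overlapped; the groups of Uqcrc1 did not overlap, but its adjusted p was 0.0665.

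Since Ndufv3 rose and its partners did not pass the test, the 250 bases upstream of the start of each of these 3 genes are shown, 5' to 3' in the direction of transcription, from the RefSeq annotation of GRCm38.p6. They come from chr17:31519865-31520114 on the forward strand for Ndufv3, chr19:4012756-4013005 on the reverse strand for Ndufv1 and chr17:66101560-66101809 on the reverse strand for Ndufv2. Capitals mark the Sp motif GGGCGG on either strand.
Ndufv3: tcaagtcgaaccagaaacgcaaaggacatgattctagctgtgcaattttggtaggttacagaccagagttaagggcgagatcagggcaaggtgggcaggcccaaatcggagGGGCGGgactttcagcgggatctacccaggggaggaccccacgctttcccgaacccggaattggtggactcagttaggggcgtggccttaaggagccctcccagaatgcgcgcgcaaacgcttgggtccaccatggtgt
Ndufv1: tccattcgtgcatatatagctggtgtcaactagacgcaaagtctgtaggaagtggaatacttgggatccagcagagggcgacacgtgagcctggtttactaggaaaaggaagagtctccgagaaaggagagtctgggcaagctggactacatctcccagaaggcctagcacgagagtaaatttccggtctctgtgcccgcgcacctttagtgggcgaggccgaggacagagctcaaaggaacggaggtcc
Ndufv2: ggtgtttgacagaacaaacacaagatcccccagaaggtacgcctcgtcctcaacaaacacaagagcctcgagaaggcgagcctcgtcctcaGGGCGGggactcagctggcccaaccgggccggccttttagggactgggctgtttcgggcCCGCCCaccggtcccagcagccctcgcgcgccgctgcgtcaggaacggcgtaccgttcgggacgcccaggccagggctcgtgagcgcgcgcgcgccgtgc
The Sp motif was found 1 time before Ndufv3, at -139 from the start, 2 times before Ndufv2, at -159 and -100, and 0 times before Ndufv1. The motifs of NRF1 (GCGC and TGCGC with any 1 base between), of the ETS factor GABPA (CCGGAAG), of YY1 (AAGATGGC) and of the ERR receptors (TCAAGGTCA), all searched on both strands and all known from promoters of respiratory genes, were found in none of these 3 windows. Across the 66 subunit genes with a promoter entry, the NRF1 motif was present for 18.2%, beside 9.77% of 8411 genes of the table, the GABPA motif for 18.2% beside 17.2%, the YY1 motif for 3.03% beside 2.47%, the ERR motif for 1.52% beside 0.297%, and the Sp motif for 36.4% beside 65.5%. These matches describe letters in the windows and not sites in use, and none of the 5 motifs contains another.

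In complex I as a whole, 33 of 34 genes were tested and 1 was called, beside 13.7% of all genes tested. The median log2 fold change of complex I was 0.01. The 7 catalytic core genes, which carry the flavin and the iron-sulfur clusters, had a median of -0.08, 6 of the 7 lay below 0 and none was called, the exception in sign being Ndufs3 at 0.06. The 26 accessory genes had a median of 0.04 and ran from -0.32 for Ndufa7 to 1.12 for Ndufv3. Besides Ndufv3, the genes of complex I named here were chosen after their values were seen. Ndufb2, an accessory subunit of the membrane arm, came nearest to the threshold among the higher genes: 147, 238 and 222 CPM in shControl and 266, 251 and 320 CPM in shLmna (log2 fold change 0.46, SE 0.18, adjusted p = 0.101). The groups did not overlap, with shControl replicate 1 the lowest library. The 3' end of its annotated transcript of 4371 bases overlaps Braf on the opposite strand. That end can differ from the one counted, and whether the counting used the strand is not given in the sources used here. Without both libraries with melanocyte transcripts its log2 fold change was 0.60 (edgeR's quasi-likelihood test, adjusted p = 0.0467). Ndufa11 was not tested, with 0 to 9 UMIs per library.

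**Figure D5:**
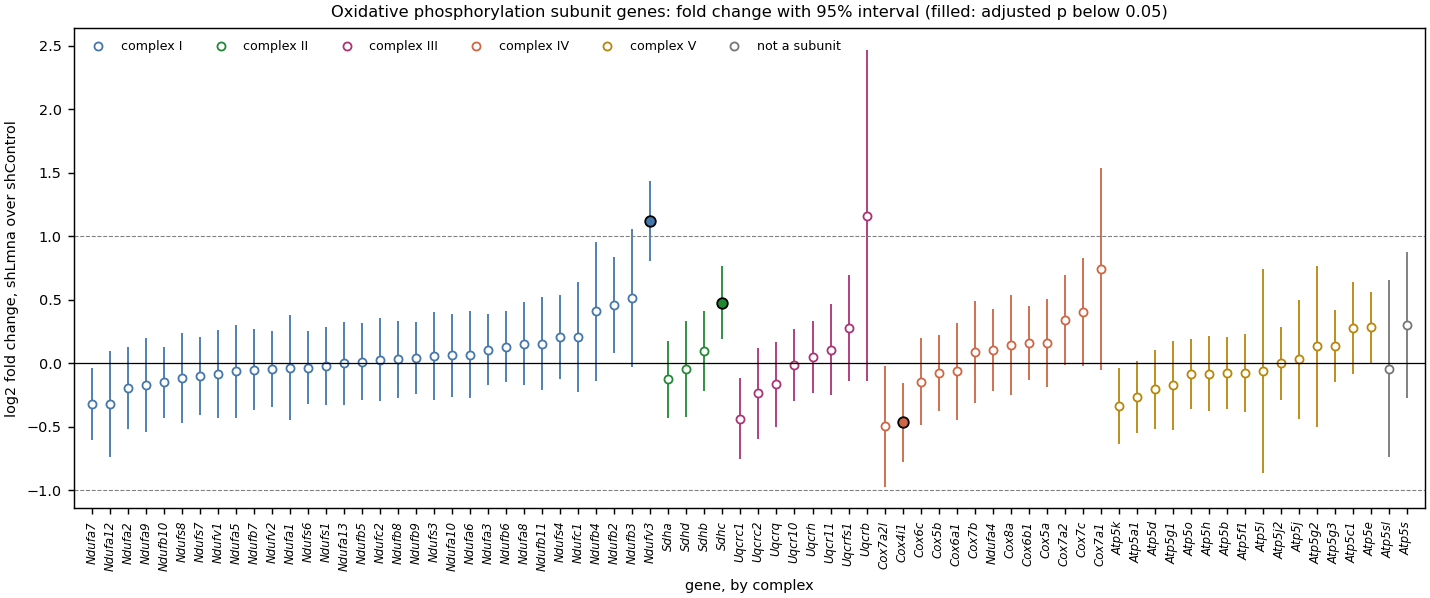
Log2 fold change (shLmna over shControl) of 74 of the 75 tested subunit genes with 95% intervals from edgeR, ordered by complex and value. Filled points passed an adjusted p of 0.05 and are Ndufv3 (1.12), Sdhc (0.48) and Cox4i1 (-0.46), and dashed lines mark log2 fold changes of -1 and 1.

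Complex II, succinate dehydrogenase, is also an enzyme of the citric acid cycle. Of its 4 subunit genes 1 was called, beside 13.7% of all genes tested, and 4 genes are too few to compare shares. Sdhc, which with Sdhd anchors the enzyme in the membrane, lies on the reverse strand of chromosome 1 from 171127165 to 171150603 (GRCm38). Its level was 169, 166 and 183 CPM in shControl and 248, 249 and 223 CPM in shLmna. The lowest shLmna library stood above the highest shControl library, and the means were 173 ± 8.75 and 240.0 ± 14.4 CPM (SD, n = 3), a 1.39-fold rise (log2 fold change 0.48, SE 0.13, edgeR, adjusted p = 0.0271). Leaving out 1 library at a time kept the log2 fold change between 0.44 and 0.53, but the adjusted p rose above 0.05 in 4 of these 6 fits, when shControl replicate 1 (0.0856), shControl replicate 2 (0.116), shLmna replicate 1 (0.0834) or shLmna replicate 2 (0.0892) was left out. Without both libraries with melanocyte transcripts the log2 fold change was 0.50 and the adjusted p 0.05, not below the threshold.

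The other subunits of complex II did not pass the test. Sdha, the flavoprotein that oxidizes succinate, stood at 229, 280 and 215 CPM in shControl and 211, 232 and 223 CPM in shLmna (log2 fold change -0.13, SE 0.14). Sdhb, the iron-sulfur subunit, stood at 440, 415 and 569 CPM against 478, 544 and 499 CPM (0.10, SE 0.15). Sdhd, the other membrane anchor, stood at 108, 126 and 155 CPM against 103, 151 and 122 CPM (-0.05, SE 0.18). For these 3 genes the groups overlapped, and their 95% intervals together ran from -0.43 to 0.42.

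Complex III, the cytochrome bc1 complex, had 8 genes tested, none called, beside 13.7% of all genes tested, and a median log2 fold change of 0.02. Its genes other than Uqcrh were chosen for description after their values were seen. Uqcrc1, a core subunit without a redox centre, came nearest to the threshold of all tested subunit genes that were not called. It stood at 390, 331 and 395 CPM in shControl and 323, 255 and 246 CPM in shLmna (log2 fold change -0.43, SE 0.15, edgeR, adjusted p = 0.0665). The groups did not overlap, with 3 of 3 shLmna libraries below all shControl libraries. Uqcrc1 passed the test when the GC content of the 3' end was corrected for (log2 fold change -0.47, edgeR, adjusted p = 0.0260), when the presence of melanocyte transcripts was a term in the fit (-0.43, adjusted p = 0.0286) and without shLmna replicate 1 (-0.58, adjusted p = 0.0340). Uqcrc2, the other core subunit, had a log2 fold change of -0.24 (SE 0.17) and overlapping groups, and Uqcrh, the hinge subunit, one of 0.05 (SE 0.13).

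Uqcrb showed how 1 library can set a value. This gene of complex III had the highest log2 fold change of all 75, 1.16 (SE 0.61, adjusted p = 0.218), but its UMIs were 8, 13 and 10 in shControl and 8, 54 and 7 in shLmna. Only shLmna replicate 2 was high, and it held melanocyte transcripts. In shControl replicate 3, which held them as well, Uqcrb had 10 UMIs. Without shLmna replicate 2 the log2 fold change was -0.30. Without both libraries with melanocyte transcripts it was -0.13. Its 3' end also matched annotated transcripts of 3 other genes, all annotated as pseudogenes, so that reads could be split among copies. Cox7b2, the testis isoform of a complex IV subunit, had a like pattern with 1, 0 and 2 UMIs in shControl and 1, 13 and 0 in shLmna, and was too low to be tested.

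Complex IV had 13 of 15 genes tested, 1 called, beside 13.7% of all genes tested, and a median log2 fold change of 0.11. Cox4i1 encodes the general isoform of subunit 4, which binds early in the assembly of the enzyme and takes part in its regulation by ATP. It lies on the forward strand of chromosome 8 from 120668222 to 120674207 (GRCm38), and the 3' end of its annotated transcript overlaps Emc8 on the opposite strand. Its level was 1211, 1002 and 996 CPM in shControl and 889, 732 and 705 CPM in shLmna. The highest shLmna library stood below the lowest shControl library, and the means were 1069.8 ± 122 and 775 ± 99.3 CPM (SD, n = 3), 0.725-fold (log2 fold change -0.46, SE 0.15, edgeR, adjusted p = 0.0465). The adjusted p lay close to the threshold: when 1 library at a time was left out, the log2 fold change ran from -0.59 to -0.38, but the call was lost in 4 of these 6 fits, without shControl replicate 1 (0.172), shControl replicate 2 (0.106), shLmna replicate 2 (0.137) or shLmna replicate 3 (0.173). Without both libraries with melanocyte transcripts it was -0.47, with an adjusted p of 0.0737.

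The Cox7a family shows the isoforms of 1 subunit side by side. Cox7a2, the general isoform, stood at 153, 200 and 224 CPM in shControl and 206, 245 and 280 CPM in shLmna (log2 fold change 0.34, SE 0.17, adjusted p = 0.199). Cox7a2l, the family member known from the assembly of supercomplexes, stood at 147, 276 and 143 CPM against 153, 135 and 115 CPM (-0.50, SE 0.22, adjusted p = 0.156). Whether it has that role in these cells was not examined. The groups of both genes overlapped, and the high value of Cox7a2l in shControl replicate 2 set most of its difference, since without that library its log2 fold change was -0.11. Without shControl replicate 3, in contrast, it was -0.67 and passed the test (edgeR's quasi-likelihood test, adjusted p = 0.0291). Cox7a2l took 49.1, 58.0 and 38.9% of the UMIs of Cox7a2 and Cox7a2l in shControl and 42.6, 35.5 and 29.1% in shLmna, shares that overlap between groups as well. Cox7a1, the heart and muscle isoform, was scarce, with 14, 18 and 4 UMIs in shControl and 22, 23 and 12 in shLmna (log2 fold change 0.74, SE 0.37, adjusted p = 0.200). In CPM its groups did not overlap, and its interval, from -0.05 to 1.54, was among the widest of the 75.

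The remaining isoform genes of complex IV moved little. Cox6a1, Cox6b1 and Cox8a, the general isoforms of their subunits, had log2 fold changes of -0.06 (SE 0.18), 0.16 (SE 0.14) and 0.14 (SE 0.19), and Ndufa4 one of 0.11 (SE 0.15). The groups overlapped for all of these genes. Cox6a2, the heart and muscle isoform, had 5 to 14 UMIs per library and was not tested. Cox7c, named after its values were seen, had a log2 fold change of 0.40 (SE 0.20, adjusted p = 0.204), with shControl replicate 3 at 277 CPM, inside the range of 219 to 316 CPM in shLmna, and the other shControl libraries at 164 and 168 CPM. Without shControl replicate 3 its log2 fold change was 0.68 (adjusted p = 0.00877), and without both libraries with melanocyte transcripts it was 0.55 (edgeR's quasi-likelihood test, adjusted p = 0.0345). The 3' end of Cox7c matched annotated transcripts of 4 other genes, all annotated as pseudogenes.

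Complex V had 15 genes tested and none called, beside 13.7% of all genes tested. It had the lowest median of the complexes, -0.07, with 6 above and 9 below 0. Subunit c, which forms the rotating ring of the membrane part, is made from 3 genes that encode the same mature protein. Atp5g3 stood at 850, 906 and 894 CPM in shControl and 910, 1066 and 938 CPM in shLmna (log2 fold change 0.14, SE 0.13), a small difference without overlap that did not pass the test (adjusted p = 0.540). Atp5g1 stood at 473, 580 and 374 CPM against 477, 376 and 415 CPM (-0.17, SE 0.17), and Atp5g2 at 8.24, 12.8 and 9.02 CPM against 9.37, 14.3 and 9.57 CPM (0.13, SE 0.30). Both overlapped between groups, and Atp5g1 took 29.3 to 38.7% of the UMIs of the 3 genes in shControl and 25.8 to 34.2% in shLmna. The end of Atp5g1 matched annotated transcripts of 13 other genes, of which 1 is annotated as a pseudogene. Whether the matches to the others are copies of subunit c was not tested.

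The catalytic F1 part of the ATP synthase held genes that lay on either side of 0. Atp5a1 and Atp5b encode its alpha and beta subunits, which form the catalytic sites. They had log2 fold changes of -0.27 (SE 0.13, edgeR, adjusted p = 0.208, groups without overlap) and -0.08 (SE 0.13, groups overlapping). Atp5e, the epsilon subunit of the central stalk, had one of 0.28 (SE 0.13, adjusted p = 0.167) with no overlap between groups, and Atp5c1, the gamma subunit, one of 0.28 (SE 0.17, adjusted p = 0.309). In the membrane part, Atp5k, an accessory subunit, had a log2 fold change of -0.33 (SE 0.14, adjusted p = 0.128), also without overlap. These 5 genes were chosen after their values were seen, and none of them passed the test.

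The genes around the complexes were examined in lists of related mitochondrial genes, in which 78 genes were tested, 2 rose and 3 fell (edgeR's quasi-likelihood test). That is 6.41% called, against 13.7% of all genes tested. Usmg5, a small membrane subunit of the ATP synthase that the symbols do not catch, fell from 98.8, 122 and 131 CPM to 57.7, 48.1 and 98.4 CPM (log2 fold change -0.80, SE 0.22, adjusted p = 0.0266), although shLmna replicate 3 came close to the lowest shControl library. The 3' end of its annotated transcript of 2733 bases overlaps Taf5 on the opposite strand, and that end can differ from the one counted. Without both libraries with melanocyte transcripts its log2 fold change was -0.52 and its adjusted p 0.119. The other 3 tested subunits that the symbols miss, Cyc1 (-0.25), Ndufab1 (0.26) and 2010107E04Rik (-0.35), did not pass the test.

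Of 39 assembly factors tested, 1 rose and 1 fell, or 5.13% called, against 13.7% of all genes tested. Sdhaf4, which helps to mature Sdha for complex II, rose from 23.5, 23.8 and 21.8 CPM to 33.7, 37.8 and 36.7 CPM (log2 fold change 0.64, SE 0.19, adjusted p = 0.0327), with a call that was lost when any 1 of the 6 libraries was left out. Its log2 fold change was 0.57 without both libraries with melanocyte transcripts (edgeR, adjusted p = 0.113). The 3' end of its annotated transcript overlaps Gm26524 on the opposite strand. Atpaf2, a chaperone for the alpha subunit of the ATP synthase, fell from 102, 93.8 and 86.5 CPM to 59.2, 62.8 and 60.1 CPM (log2 fold change -0.64, SE 0.15, adjusted p = 0.0116), and without both libraries with melanocyte transcripts its log2 fold change was -0.71 (adjusted p = 0.0132). The groups of both genes did not overlap. None of 11 assembly factors of complex I, 6 of complex III and 17 of complex IV was called.

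Among 16 enzymes of the citric acid cycle and its entry, Dlst, the succinyltransferase of the oxoglutarate dehydrogenase complex, fell from 454, 399 and 319 CPM to 262, 263 and 228 CPM (log2 fold change -0.64, SE 0.15, edgeR, adjusted p = 0.0126), and no other was called. Among the carriers that bring ADP and phosphate to the ATP synthase, Slc25a4, the ADP/ATP carrier known from heart and muscle, rose from 446, 480 and 611 CPM to 645, 807 and 843 CPM (log2 fold change 0.58, SE 0.16, adjusted p = 0.0239), and the other 2 tested were not called. The log2 fold change without both libraries with melanocyte transcripts was -0.79 for Dlst (edgeR, adjusted p = 0.00257) and 0.69 for Slc25a4 (adjusted p = 0.00971). None of 12 nuclear regulators of respiratory genes was called. Yy1 stood at 32.9, 71.0 and 62.1 CPM in shControl and 74.6, 89.2 and 86.1 CPM in shLmna (log2 fold change 0.59, SE 0.23, adjusted p = 0.1), and Gabpb2, a partner of Gabpa, at no more than 22.8 CPM in shControl and 30.4, 29.4 and 31.4 CPM in shLmna (0.52, SE 0.19, adjusted p = 0.0907). The groups of these 2 genes did not overlap. The other regulators overlapped between groups, with Nrf1 at -0.21 (SE 0.19), Gabpa at 0.22 (SE 0.24), Tfam at 0.18 (SE 0.32) and Esrra at 0.10 (SE 0.17). None of 4 electron carriers and inhibitors was called, with Etfb, a subunit of the electron transfer flavoprotein, nearest at 0.42 (SE 0.14, adjusted p = 0.0612). These regulators and Etfb were named after their values were seen. The 5 called genes, Usmg5, Sdhaf4, Atpaf2, Dlst and Slc25a4, make up 6.41% of the 78, against 13.7% of all genes tested. Besides Sdhaf4, Usmg5 lost its call without shControl replicate 2, shLmna replicate 1 or shLmna replicate 2 (adjusted p 0.109 to 0.128), Atpaf2 without shControl replicate 1, shControl replicate 2 or shLmna replicate 3 (0.0544 to 0.0627), Dlst without shControl replicate 2 or shLmna replicate 3 (0.0654 and 0.0713), and Slc25a4 without shControl replicate 1 or 2 or shLmna replicate 2 or 3 (0.0740 to 0.128), with the sign of all kept.

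Deviations of the libraries from the mean were related to the base composition of the 3' ends to an extent that differed between libraries. The fold changes were weakly related to it, and whether base composition set them was not tested. Across the 75 subunit genes, the log2 fold change and the GC content of the 3' end were related with Pearson's r = -0.19 and Spearman's rho = -0.18, and across all genes with a GC value with r = -0.19. The genes share the same 6 libraries and are not independent. Among the subunit genes, the deviations of each library from the mean were related to GC content with r = 0.32, 0.07 and -0.12 in shControl replicates 1, 2 and 3 and r = 0.30, -0.19 and -0.25 in shLmna replicates 1, 2 and 3, so that both groups held libraries of either sign. The 37 subunit genes of lower GC content had a median log2 fold change of 3.5e-05 and the 38 of higher GC content one of 0.0166. With the GC correction Ndufv3, Sdhc and Cox4i1 were called, as was Uqcrc1, and r was -0.0968. By this fit 5.33% of the subunit genes were called, against 16.8% of all genes tested.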

How the data were processed

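Bulk MARS-seq libraries of 3 shControl and 3 shLmna E0771 samples were used, grouped and numbered by the sample labels. Per the study's methods, the authors trimmed with Cutadapt, aligned to mm10 with STAR 2.4.2a and counted UMIs with a modified HTSeq-count over the 3' end of RefSeq genes (1000 bases before the end, 100 after it). The deposited table holds raw counts without normalization for 10520 genes, and no gene has a highest count under 6 UMIs. The authors also deposited log2 values corrected with ComBat, and a DESeq2 comparison with fold changes and p-values, and neither was used.

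The count table was fitted with edgeR 4.0.16 (R 4.3.3): filterByExpr (minimum count 10), TMM scaling, the quasi-likelihood test without a replicate block, and Benjamini-Hochberg adjustment over the 8969 genes kept. CPM were computed with the TMM-scaled library sizes, log2 CPM with a prior count of 2. Alternatives were DESeq2 1.42.0, limma-voom (limma 3.58.1), other scalings and filters, thinning to 1846208 UMIs, a loess correction for GC content (span 0.3, degree 2), the replicate block and leaving out each library. After the melanocyte transcripts were seen, fits without the libraries above a summed 100 CPM of their markers, and with their presence as a term, were added. Scripts were tested on simulated counts. Replicates of a group differed by more than sampling noise (chi-square per degree of freedom 5.11 to 8.28).

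Genes were named by a rule: every subunit gene or related gene called, the subunits of complex II, the genes of subunit c and paralogous isoforms. Others are named as chosen after their values were seen. The subunit genes and the lists were chosen with earlier results of these data known. GENCODE M21 (GRCm38) gave positions, and its transcripts matched 10473 of 10520 genes, 328 through an older symbol. GC content was that of the last 1000 bases of the matched transcript, which can differ from the one counted. Overlaps and copies were searched with the 3' end of the same transcript. Copies were searched among annotated transcripts with BLAST 2.17.0. RefSeq promoters matched 66 of the 78 genes. Of 89 subunit symbols listed, 11 are not analysed here, and the values of 1 tested gene are not reported here. Python 3.11.15, pandas 2.3.3 and matplotlib 3.10.9 were used for tables and plots.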

Additional observations from a re-analysis of the deposited data

How the results depend on the processing

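Ndufv3 was called in all 21 fits, Sdhc in 16 and Cox4i1 in 12, and between 1 and 6 subunit genes were called in any fit, 10 different ones in all. The count of subunit genes past the study's criteria stayed at 1, and the share of UMIs differed by 0.0179 percentage points between groups (0.047 without the 100 genes with the most UMIs). As reported, 2 were higher and 1 lower. Lower subunit genes numbered 0 with library totals (Cox4i1 adjusted p 0.0567), no filter (0.0549), a mean count of at least 50 (0.052), thinned counts (0.0625) and without both libraries with melanocyte transcripts, 2 with the GC correction, alone or with the replicate block, and with melanocyte transcripts as a term (where higher ones numbered 4), and 4 with that term and the GC correction (Cox4i1, Uqcrc1, Ndufa7 and Ndufv2). With each library left out in turn there were 1 to 3 higher and 0 to 2 lower. Among the 52 tested genes whose 3' end matched no other gene in the search for copies, the counts were 2 and 1. Related genes, 2 higher and 3 lower as reported, numbered 1 higher with DESeq2 and without both libraries, 4 higher with the term, 5 higher and 5 lower with the term and GC correction, and 0 to 3 higher and 0 to 4 lower with each library left out. The median of complex II ran from -0.0706 to 0.1632 with each library left out, and no other median moved by more than the spread between replicates. Of all genes tested, 13.7% were called as reported, 16.8% with the GC correction, 15.1% with the replicate block and 11.5% with DESeq2. The share was 20.8% with melanocyte transcripts as a term and 13.2% without both libraries. Shares for the other fits are not given here, so their counts cannot be set against all genes. The causes were not tested.

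Signs turned in genes that were not called as reported: with library totals for Sdhd (0.0091) and Ndufv2 (0.0061), without both libraries for Atp5g2 (-0.1722), Cox6a1 (0.0694), Uqcrb (-0.1341) and Ndufv2 (0.0981), and with 1 library left out for Sdhd (-0.2065 to 0.0881), Ndufv2 (-0.1335 to 0.0581), Ndufv1 (-0.2363 to 0.0638), Atp5g2 (-0.1054 to 0.3741), Cox6a1 (-0.2997 to 0.1152), Cox8a (-0.1033 to 0.2954), Uqcrb (-0.2974 to 1.5756) and Uqcrh (-0.0003 to 0.1088).

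Same-numbered libraries deviated together at correlations of 0.35, -0.11 and 0.0052, so the numbers were not treated as a pairing. With the replicate block, 2 subunit genes were higher and 2 lower, Uqcrc1 (-0.4404) being the addition, and 15.1% of all genes were called. The median log2 fold change was 0.0038 and that of Lmna -1.19. Both libraries with melanocyte transcripts deviated together at 0.35.

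The planned search for copies in the genome was not run. With 3 libraries a group, the median SE of the subunit genes was 0.15 and 40 of 75 intervals of 95% lay within 0.5 of 0, so that a change of that size was not bounded for the others. Genes with few UMIs, such as Uqcrb, Atp5l and Cox7a1, had wide intervals.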
